A study of Mus musculus with 51 samples.

Results

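Mouse embryos without the nucleolar noncoding transcript LoNA, by genotype label, were compared with control embryos at 24h by RNA sequencing. The comparison was taken as all count columns of the 24h embryo RNA table, 4 labelled LoNA KO and 4 labelled control, which are 8 of the 51 samples of the series. Both groups were 2-cell embryos of strain C57BL/6, with genotype given as control or LoNA KO and the time point as 24h. The labels do not say from which event the hours were counted, how the allele was made, whether the parents were mutant, or how many embryos or which animals stood behind a sample, so a p-value measures only the spread between these libraries, which may be technical. Total RNA was taken with Trizol and 2 µg was put into each library. The series asks whether a disturbed nucleolus represses genes of the 2-cell stage by way of nucleophosmin, which would recruit PRC2, a Polycomb complex.

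The nucleolus is the compartment where ribosomal RNA is transcribed and ribosomal subunits are assembled, and nucleophosmin (Npm1) and nucleolin (Ncl) are among its main proteins. In the mouse 2-cell embryo the maternal RNA stored in the oocyte is degraded while the embryo's own genome is switched on, and a set of genes such as the Zscan4 cluster and Zfp352 is transcribed briefly at this stage. PRC2 trimethylates histone H3 at lysine 27 (H3K27me3), a mark of silenced developmental genes. In bulk RNA a lower level cannot be told apart from fewer cells that hold the transcript, or from less of it per cell.

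The 8 columns did not behave as 8 separate samples. Within each group they fell into 2 pairs whose log2(CPM + 1) values, CPM being counts scaled to an equal column total, correlated at 0.995 to 0.998, while columns of one genotype from different pairs correlated at 0.572 to 0.632. Each pair was summed, which left 2 control and 2 KO libraries of 13066794 to 16922914 counts. After summing, the 2 control libraries correlated with each other at 0.577 and the 2 KO libraries at 0.631, while the 4 pairs of a control with a KO library lay between 0.590 and 0.616. The controls were therefore less like each other than like either KO library.

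**Figure D1:**
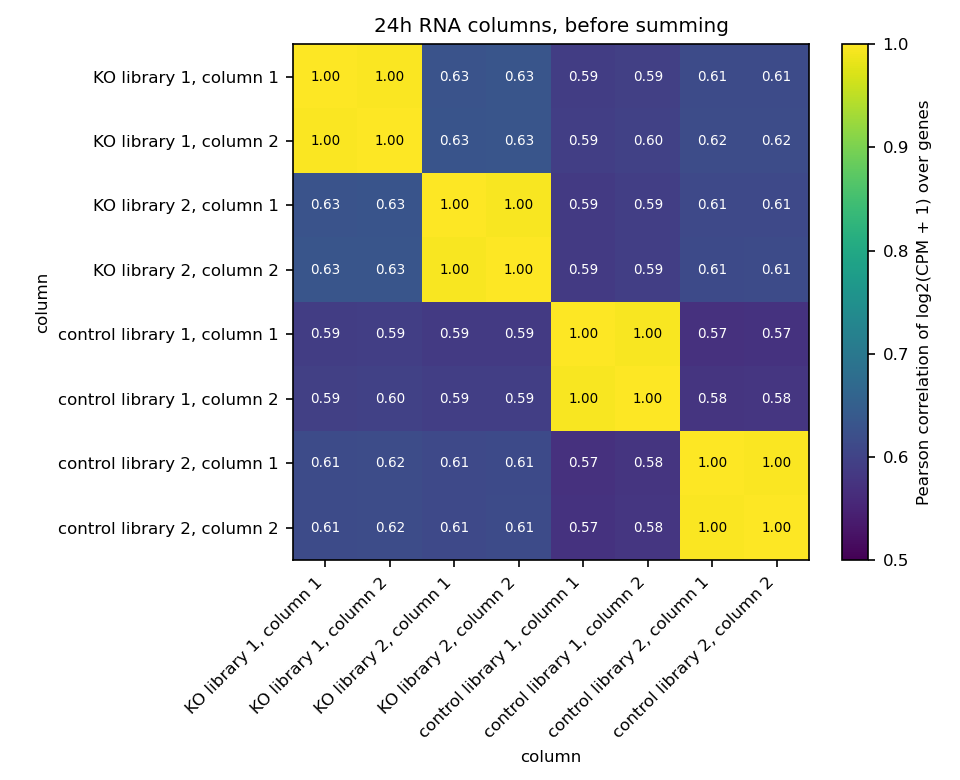
Pearson correlation of log2(CPM + 1) over genes between the 8 deposited 24h columns (both axes), named by the library they were summed into. Each column has 1 near-identical partner at 0.995 or above, and all other pairs, within or between genotypes, lie at 0.572 to 0.632.

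From here on, CPM are counts divided by the library total over tested genes times its TMM factor, a scaling factor that ran from 0.848 for KO library 1 to 1.28 for control library 1. Control library 1 stood apart from the other 3. It held counts for 10167 genes against 7877 to 9114, its 10 most abundant genes took 18.0% of counts against 25.5% to 28.2%, and mitochondrially encoded transcripts took 12.9% against 15.4% to 19.3%. Omt2a, one of the 5 most abundant genes and a transcript first described in maturing oocytes, measured 7617 CPM in it, against 35108, 35302 and 35104 CPM in control library 2, KO library 1 and KO library 2. Its neighbour Omt2b showed the same split, at 7759 CPM against 30896, 32454 and 32839 CPM. The log2 change of KO over control was 0.72 for Omt2a and 0.76 for Omt2b, and 0.0182 and 0.0937 without control library 1. Without control library 2 it was 2.12 and 1.99, so a fit on control library 1 alone carries the difference of that library.

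The libraries carried the transcripts of an oocyte-derived early embryo. Dppa3, which protects maternal methylation in the zygote, Btg4, an adaptor for the clearance of maternal mRNA, and Spin1, a chromatin reader abundant in oocytes, were each at 9097 CPM or more in all 4 libraries. Of 76 markers of cumulus and granulosa cells, sperm, blood cells and fibroblasts, 10 had enough counts to test. The summed level of the cumulus and granulosa list was 9.41 and 0.0688 CPM in control and 6.57 and 129.1 CPM in KO, where the defining markers Amh, Fshr and Foxl2 had no row in the table. The sperm and testis list summed to 139.9 and 47.1 CPM in control and 0.777 and 12.3 CPM in KO, with Prm1 and Tnp1 without a row. The blood list summed to 31.2 and 75.4 CPM in control and 1.34 and 216.2 CPM in KO, and the fibroblast list to 40.4 and 0.482 CPM in control and 85.6 and 63.6 CPM in KO, with Ptprc and Col1a1 without a row. The sperm and testis sum was higher in both control libraries, the fibroblast sum was higher in both KO libraries, and the other 2 sums overlapped between the genotypes. The part of these cell types in the results was not tested.

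The marker genes with counts were uneven between libraries of one genotype. Hba-a1, a globin of red blood cells, measured 17.1 and 13.3 CPM in control and 0.141 and 95.5 CPM in KO, and Hbb-bs, another globin, 4.15 and 28.8 CPM in control and 0 and 34.3 CPM in KO. Hbb-bt measured 0 and 0.482 CPM in control and 1.13 and 6.16 CPM in KO, and Cd52, a surface protein of lymphocytes, 5.70 and 32.8 CPM in control and 0 in both KO libraries. The groups were apart for Hbb-bt and Cd52, in opposite directions, and overlapped for the other globins.

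Among sperm and testis genes, Odf2, a protein of the sperm tail, measured 34.0 and 40.2 CPM in control and 0.777 and 1.91 CPM in KO. Pgk2, a glycolytic enzyme of the testis, measured 53.7 and 0.344 CPM in control and 0 and 2.83 CPM in KO, and Prm2, a protamine, 5.32 and 6.54 CPM in control and 0 and 7.58 CPM in KO. Odf2 alone of these 3 had groups that did not overlap. Fn1, the fibronectin of the fibroblast list, measured 28.4 and 0.344 CPM in control and 0 and 36.1 CPM in KO, and Runx2 of the cumulus and granulosa list 0 in both control libraries and 4.38 and 45.1 CPM in KO. No row of the tables is named LoNA, and the loss of the transcript was therefore not checked in the counts.

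Among 13718 genes listed, 7425 had enough counts to test, and no gene passed the edgeR quasi-likelihood threshold of an adjusted p of 0.05 in either direction (0%). The smallest adjusted p was 0.826. At an unadjusted p under 0.05, 383 genes stood out, 5.16% of those tested, of which 143 were higher and 240 lower in KO. The spread between libraries of one group, as the edgeR coefficient of variation, was 158%. DESeq2, which estimates the spread differently, called 554 genes higher and 851 lower among 8665 with an adjusted p (6.39% and 9.82%). Without control library 2, which leaves a lone control library assumed to vary like the KO ones, edgeR called 23 higher and 16 lower, and without control library 1 it called 8 and 6.

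In place of calls, genes were sorted by whether the libraries of both groups overlapped. Both KO libraries lay above both control libraries for 1186 genes, 16% of those tested, and below both for 1288 genes, 17.3%, so that the groups were apart for 33.3% of all tested genes. With 2 libraries a group, a random order of the libraries would put the groups apart about as often as this 33.3%. Being apart is thus not by itself a sign of a genotype difference. Each list below is read against the shares of 16% and 17.3%. Positive log2 changes made up 50.5% of all tested genes, with a median of 0.02, and this median was -0.22 when the libraries were scaled by their totals without TMM factors. Over all tested genes the median was 0.85 without control library 1, 0.21 without control library 2, -0.73 without KO library 1 and -1.91 without KO library 2. A list median with a library left out is read beside these values.

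The differences within a group were large for all but the most abundant genes. Among 3924 genes at a mean of 10 to 100 CPM, the median absolute difference on the log2(CPM + 1) scale was 2.197 between the control libraries and 2.19 between the KO libraries, against 1.43 between the group means. Among the 122 genes at 1000 CPM or more it was 0.75 between controls, 0.41 between KO libraries and 0.55 between group means. Detection followed the same course. Of the tested genes, 1980 reached 10 CPM in all 4 libraries and 1694 in exactly 2. The 2 were both control libraries for 318 genes, both KO libraries for 235, and 1 library of each genotype for 1141. A mixed pair can arise in more ways than a pair of one genotype, so the larger mixed count is not by itself a result. The share of genes apart and higher rose with level. It was 12.9% under 10 CPM and 15.7% at 10 to 100 CPM. At 100 to 1000 CPM it was 20.5%, and at 1000 CPM or more 31.1%. The share apart and lower was 18.7%, 17.4%, 14.9% and 14.8% in this order. Lists of abundant genes, such as the maternal, Obox and cell cycle lists, are read beside these shares as well.

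The genes named first are the 12 protein-coding genes in each direction with the lowest p among those whose groups did not overlap and whose lower library of the higher group had at least 20 CPM. A direction follows from that choice, and each had an adjusted p of 0.826 by edgeR. St8sia6, which encodes a sialyltransferase of the cell surface, had no count in either control library and measured 196.5 and 75.7 CPM in KO, at least 1349-fold higher. Pzp, which encodes a protease inhibitor of the alpha-2-macroglobulin family, also had none in control and measured 68.9 and 49.3 CPM in KO, at least 598-fold higher. Both genes were thus detected in both KO libraries and in neither control library.

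Ranbp2, a nucleoporin of the cytoplasmic face of the nuclear pore, measured 0 and 0.0688 CPM in control and 231 and 52.3 CPM in KO. Nfyb, a subunit of the CCAAT-binding factor NF-Y, measured 0.0619 and 0 CPM in control and 134 and 75.9 CPM in KO. Kpna1, an importin that carries proteins into the nucleus, measured 0.0619 and 0.0688 CPM in control and 51.9 and 120.4 CPM in KO. Ranbp2 and Nfyb had 0 counts in 1 control library and 1 count in the other, so no fold is given for them.

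Ddias and Akirin2 were the 2 of these 12 genes above 9 CPM in all 4 libraries. Ddias, an anti-apoptotic factor induced by DNA damage, measured 9.16 and 34.2 CPM in control and 469 and 492 CPM in KO, a log2 change of 4.47 with a standard error of 1.06. Akirin2, which brings proteasomes into the nucleus, measured 255 and 194 CPM in control and 897 and 1024 CPM in KO, a log2 change of 2.096 with a standard error of 0.62. Without control library 2, which leaves only the control library that stood apart, the log2 change was 14.01 for St8sia6, 14.07 for Ranbp2 and 5.63 for Ddias. The remaining 5 were 2610002M06Rik, Tyw5, Ppp1r42, Abca14 and Tomm70a, the last an import receptor of the mitochondrial outer membrane, which measured 0 and 0.138 CPM in control and 138 and 34.5 CPM in KO.

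Among the genes lower in KO, Zscan4-ps3, a member of the Zscan4 cluster, measured 444 and 181 CPM in control and 0.919 and 0.616 CPM in KO, a log2 change of -8.66 with a standard error of 1.40. Its copies are near-identical, so reads could be split among them and the value is uncertain. The log2 change of Zscan4-ps3 was -9.25 without control library 2. With no filter on low counts its adjusted p by edgeR was 0.00557, against 0.826 in the main fit. The gene was chosen for its low p in these same libraries, so the smaller value is not separate evidence. Gm6489, a processed pseudogene named here after its value was seen because it had the smallest p of all genes (0.000147), measured 352.5 and 334.5 CPM in control and 0.353 and 0.308 CPM in KO.

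Psg17, a pregnancy-specific glycoprotein, measured 144 and 176 CPM in control and 0.636 and 0.185 CPM in KO. Hydin, a component of motile cilia, measured 81.8 and 138.5 CPM in control and had no count in KO, at least 1100-fold lower. H1f0, a linker histone, measured 384 and 177 CPM in control and 8.27 and 4.62 CPM in KO, a log2 change of -5.44 with a standard error of 1.26. Of these, H1f0 was the one with counts well above 0 in every library.

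Ptprd, a receptor tyrosine phosphatase, measured 36.0 and 167 CPM in control and 0.0707 and 0.0616 CPM in KO. Aknad1 measured 169 and 111 CPM in control and 0.141 and 0.0616 CPM in KO. AI597479 measured 62.6 and 377 CPM in control and 0.636 and 0.862 CPM in KO, with a log2 change of -8.94 without control library 1. The control levels of Ptprd and AI597479 differed several-fold between the 2 libraries, while the KO levels were near 0 in both.

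Sgcd, a sarcoglycan of the dystrophin complex, measured 390.4 and 326 CPM in control and 14.5 and 33.3 CPM in KO, a log2 change of -3.91 with a standard error of 1.02. Without control library 2 the log2 change of H1f0 was -5.98, and without control library 1 that of Tceal9 was -9.86. Tceal9 measured 27.9 and 248 CPM in control and 0.141 and 0.370 CPM in KO. Olfr654, Prr23a1 and Rnf125, the last a ubiquitin ligase, completed the 12, each at 63.5 CPM or more in both control libraries and at 0.308 CPM or less in both KO libraries. The authors' deposited table gives log2 changes of the same sign for all 24 genes, such as 13.00 for St8sia6 and -8.70 for Zscan4-ps3.

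**Figure D2:**
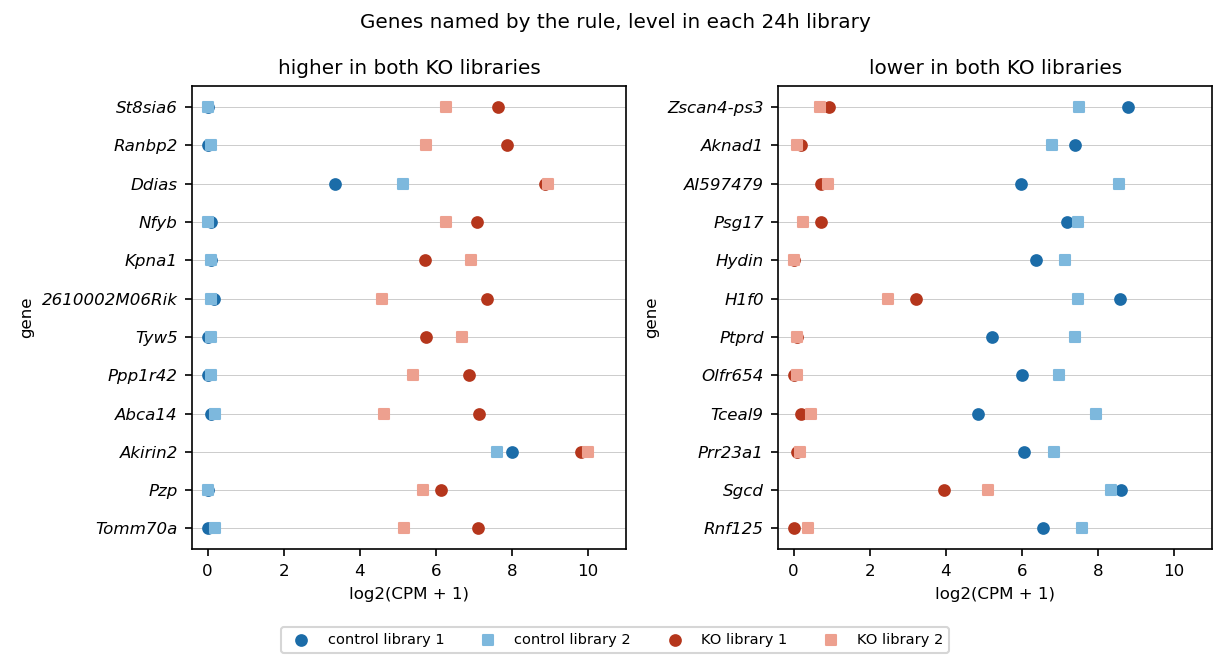
Level of the 24 genes in each 24h library, as log2(CPM + 1) on the x axis, with 1 gene per row. The groups do not overlap, by choice of the genes, and 20 of the 24 genes are under 1 CPM in both libraries of one genotype, while Ddias, Akirin2, H1f0 and Sgcd are at 4.62 CPM or more in all 4.

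The same genes were measured at 18h, 20h and 22h in 18 other embryo libraries of the series, 9 control and 9 KO, which played no part in choosing them. St8sia6 ranged from 0.254 to 27.4 CPM in them and Pzp from 0 to 15.01 CPM. Psg17 ranged from 23.2 to 160.2 CPM with a median of 101.1, Aknad1 from 59.3 to 161.4 with a median of 95.2, and Hydin from 11.6 to 35.1 with a median of 23.0. Ranbp2 ranged from 3.92 to 22.4 CPM with a median of 12.7, Nfyb from 11.7 to 37.1 with a median of 18.9, and Akirin2 from 284.6 to 594.8 with a median of 417.4. All 18 earlier libraries therefore held Psg17 and Hydin, which were near or at 0 in both KO libraries at 24h, and Ranbp2 and Nfyb, which were near 0 in both controls at 24h.

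Over those 18 libraries the mean KO effect of the 3 earlier times had the 24h direction for 6 of the 12 genes higher at 24h and for 6 of the 12 lower at 24h. None of the 24 passed limma's adjusted threshold in the earlier effect, nor did any of 12441 genes. Psg17 had the lowest earlier p of the 24, with a log2 effect of -0.90 and an adjusted p of 0.565 by limma. Its KO libraries at 18h lay between 32.3 and 118 CPM and its controls between 128 and 160.2 CPM, with separate log2 effects of -0.75, -1.40 and -0.48 for the 3 times in order. AI597479 followed at -0.64 with an adjusted p of 0.630. Zscan4-ps3, lower in KO at 24h, lay on the other side, with a mean earlier effect of 0.98 and an adjusted p of 0.844 by limma. The KO mean of Zscan4-ps3 exceeded the control mean at 18h and 22h, while the reverse held at 20h. The difference between the 24h effect and the mean of the earlier effects was tested with limma on weighted libraries, in which 24h libraries had a mean weight of 0.172 against 1.15 to 2.00 at the other times. In that test 0 of 12441 genes passed (0%), with 400 at an unadjusted p under 0.05. Without the weights 1450 genes passed and in edgeR 4035 did.

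**Figure D3:**
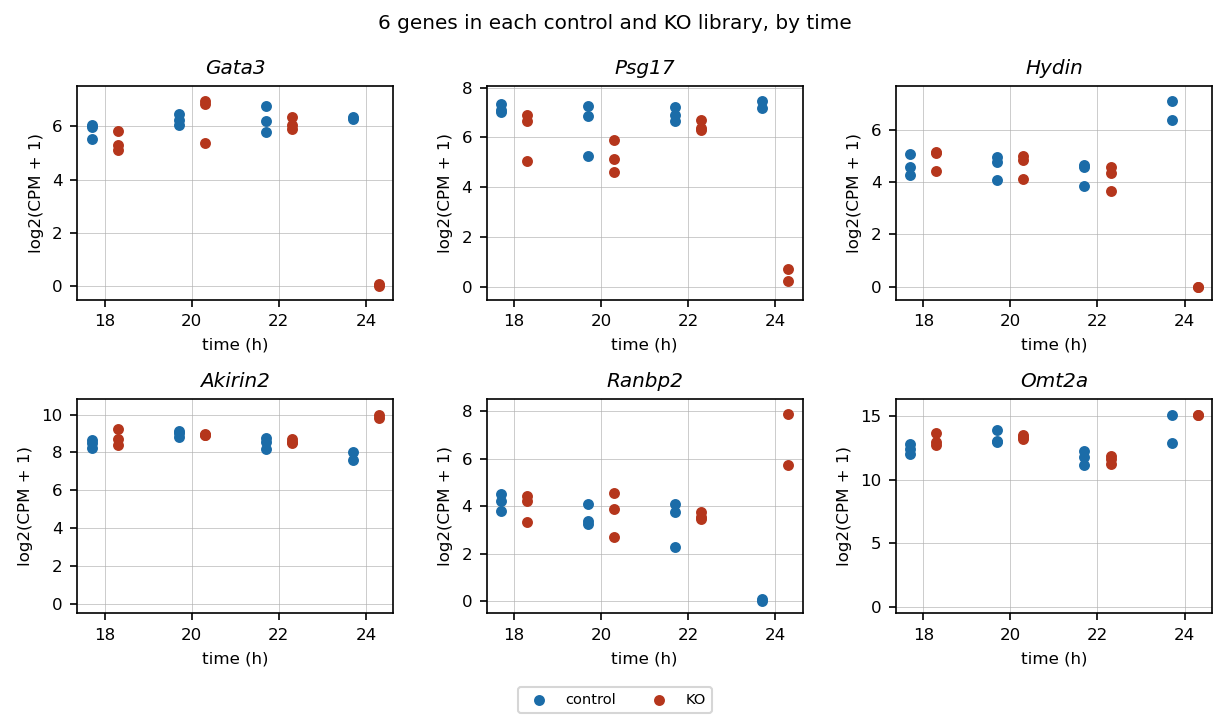
Level of 6 genes at 18h, 20h, 22h and 24h as log2(CPM + 1), with 1 point per library (3 per genotype at the earlier times, 2 at 24h). Gata3 and Hydin overlap between the genotypes at 18h, 20h and 22h, Psg17 has a lower KO mean at each of these times with groups apart at 18h, and all 3 are at or near 0 in KO at 24h, while Ranbp2 is near 0 in control at 24h.

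How often a gene dropped out of a 24h library was counted on genes that were steady before. Of genes in all 4 tables, 4559 had at least 10 CPM in every one of the 18 earlier libraries. At 24h 654 of these were under 1 CPM in control library 1, 1234 in control library 2, 1190 in KO library 1 and 868 in KO library 2, which is 14.3%, 27.1%, 26.1% and 19.04%. Of the 676 that were under 1 CPM in exactly 2 of the 4 libraries, 71 were so in both controls, 114 in both KO libraries and 491 in 1 library of each genotype. Here too a mixed pair can arise in more ways than a pair of one genotype. Among the 24 genes named above 11 belonged to the steady set, namely Ddias, Nfyb, Akirin2, Aknad1, AI597479, Psg17, Hydin, H1f0, Ptprd, Sgcd and Rnf125. The part of this loss of transcripts in the genotype comparison was not tested.

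Chromatin of 24h embryos was profiled in the same series for H3K4me3, a mark of active promoters, for H3K27me3 and for acetylated nucleophosmin (AcNPM1), with no test. The labels list 3 AcNPM1 samples per condition, of which the deposited table gives 1 value per condition, so their spread is not known here, and 1 sample per condition for each histone mark. The H3K4me3 and H3K27me3 columns carry initials, and their ratio was read as KO over control from the table's name. Among tested protein-coding genes, 86.9% of those higher in both KO libraries had an H3K4me3 peak within 2500 bases of their start, against 84.1% of those lower in both and 86.9% of those whose groups overlapped. For H3K27me3 the shares were 11.7%, 13.4% and 11.6%, and for AcNPM1 10.3%, 11.4% and 10.3%. The median log2 ratio of the H3K27me3 peaks was 0.13, 0.11 and 0.12 in the same order, and that of the AcNPM1 peaks 0.20, 0.21 and 0.22. For the H3K4me3 peaks it was -0.11, -0.12 and -0.13, and 23.5% of those at tested coding genes had a positive ratio. Genes apart in RNA thus had the marks about as often as the other genes, and their peaks had ratios about as high.

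Promoter windows of 4 of the named genes are shown because they span the range of marks seen at the genes apart in RNA. They run from 250 bases before to 50 after the annotated start, are taken from RefSeq on GRCm38.p6 and are written 5′ to 3′ on the gene's strand, with each CG dinucleotide in capitals. St8sia6 (chr2:13793471-13793770, minus strand), higher in KO, and Prr23a1 (chr9:98842337-98842636, plus strand), lower in KO, each had a peak of all 3 marks over the window. Ranbp2 (chr10:58446602-58446901, plus strand), higher in KO, had an H3K4me3 peak alone, and Psg17 (chr7:18821542-18821841, minus strand), lower in KO, had none.
St8sia6: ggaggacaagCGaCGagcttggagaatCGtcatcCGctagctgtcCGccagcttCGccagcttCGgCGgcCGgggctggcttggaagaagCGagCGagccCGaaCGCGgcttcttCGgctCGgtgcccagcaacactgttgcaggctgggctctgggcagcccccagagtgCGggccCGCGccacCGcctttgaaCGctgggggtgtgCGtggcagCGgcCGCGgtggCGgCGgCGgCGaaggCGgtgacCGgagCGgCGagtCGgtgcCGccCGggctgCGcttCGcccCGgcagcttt
Prr23a1: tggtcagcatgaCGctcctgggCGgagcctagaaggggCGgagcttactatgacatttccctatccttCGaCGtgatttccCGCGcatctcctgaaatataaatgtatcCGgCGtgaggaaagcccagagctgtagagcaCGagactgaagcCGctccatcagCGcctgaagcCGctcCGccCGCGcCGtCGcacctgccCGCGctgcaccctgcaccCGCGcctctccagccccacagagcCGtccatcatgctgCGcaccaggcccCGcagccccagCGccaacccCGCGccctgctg
Ranbp2: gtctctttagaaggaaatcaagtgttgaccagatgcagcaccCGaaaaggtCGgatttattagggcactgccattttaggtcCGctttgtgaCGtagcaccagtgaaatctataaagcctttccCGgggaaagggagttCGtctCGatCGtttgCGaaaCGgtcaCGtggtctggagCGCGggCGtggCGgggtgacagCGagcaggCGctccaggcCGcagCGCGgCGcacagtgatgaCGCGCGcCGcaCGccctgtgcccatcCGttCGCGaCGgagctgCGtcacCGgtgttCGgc
Psg17: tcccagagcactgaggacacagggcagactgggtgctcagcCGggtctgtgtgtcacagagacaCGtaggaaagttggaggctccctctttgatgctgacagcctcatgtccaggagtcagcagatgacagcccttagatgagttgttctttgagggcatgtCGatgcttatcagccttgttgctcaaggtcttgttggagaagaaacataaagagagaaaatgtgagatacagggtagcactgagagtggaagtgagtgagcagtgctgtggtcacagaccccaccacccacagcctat
The windows held 39, 28, 33 and 3 CG in this order, where the median over 32851 RefSeq windows of the same length was 7 and 94.6% held at least 1 CG. The median was 22 CG for the windows of genes higher in both KO libraries, 20 for those lower in both and 20 for those with overlapping groups.

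The AcNPM1 signal at St8sia6 was 9.17 RPM (reads scaled to the library total) in control and 11.5 in KO, a log2 ratio of 0.32, beside an H3K27me3 ratio of 0.04 and an H3K4me3 ratio of -0.35. At Prr23a1 the AcNPM1 signal was 5.11 and 4.03 RPM, a log2 ratio of -0.34, beside -0.33 for H3K27me3 and -0.04 for H3K4me3. Ptprd, on chromosome 4 and lower in KO, had ratios of -0.19 for AcNPM1, -0.37 for H3K27me3 and 0.29 for H3K4me3.

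Genes of the 2-cell stage were lower in both KO libraries for a larger share of members than over all genes, and their summed level was set by control library 1. Of 54 listed genes 34 were tested, 9 had a positive and 25 a negative log2 change, and the median was -1.22. Both KO libraries lay below both controls for 13 of the 34 (38.2%, beside 17.3% of all genes) and above both for 2 (5.88%, beside 16%). The summed level of the list's 43 genes in the table was 4612 and 1804 CPM in control and 1208 and 2497 CPM in KO, so the second control library lay below the second KO library. Without control library 1 the median of the list was 0.29, beside 0.85 over all tested genes, and without control library 2 it was -1.92, beside 0.21. It was -1.15 without KO library 1, beside -0.73, and -4.67 without KO library 2, beside -1.91. The sign of the median thus turned without control library 1, and the median lay below that of all genes in each of these 4 fits. The lower side was not shared by all earlier times. In those other libraries 34 of 49 tested members were positive at 18h, 14 of 40 at 20h and 32 of 39 at 22h. The list medians were 0.46, -0.75 and 0.84 in this order.

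The 4 most abundant 2-cell genes showed this mixture. Gm5662 measured 874 and 260.0 CPM in control and 12.9 and 180.4 CPM in KO, with an adjusted p of 0.936 by edgeR. Its log2 change was -3.26 without control library 2. Gm5039 measured 515 and 275 CPM in control and 128 and 256 CPM in KO. Tcstv1, a small protein gene of the 2-cell stage, measured 103 and 195 CPM in control and 243 and 274 CPM in KO, so it lay on the other side. AA792892 measured 153 and 267 CPM in control and 105 and 261 CPM in KO, with overlapping groups.

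Zscan4d, which acts in telomere maintenance of early embryos, measured 358 and 47.8 CPM in control and 18.2 and 141 CPM in KO, and its log2 change was -1.35, and 0.74 without control library 1. Zfp352, a zinc finger gene of the 2-cell stage, measured 34.9 and 0.138 CPM in control and 0.0707 and 44.7 CPM in KO. For Zfp352 1 library of each genotype held the transcript and the other had it near 0. Duxf3, an activator of the 2-cell genes, had no row in the 24h table. Reads of the Zscan4, Tdpoz and Usp17l families, which are multicopy, may be shared among copies, so single members are uncertain.

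**Figure D4:**
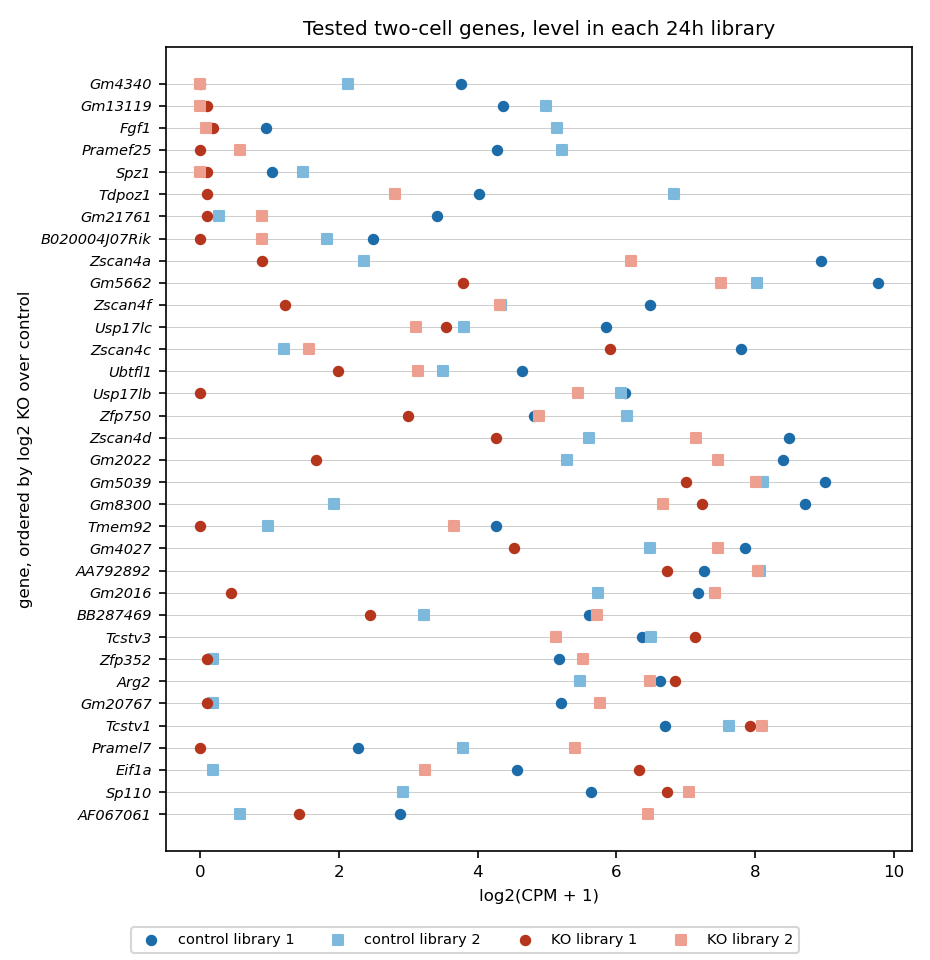
Level of each of the 34 tested 2-cell genes in the 4 libraries, as log2(CPM + 1), ordered by the log2 change of KO over control. Control library 1 holds the highest level for 16 of the 34 genes, and control library 2 lies above both KO libraries for 15, between them for 12 and below both for 7.

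Genes of the major wave of genome activation were lower in more members than higher: of 23 tested, 9 were positive and 14 negative with a median of -0.31, 2 were apart and higher (8.70%) and 6 apart and lower (26.1%). Their summed level was 5072 and 5558 CPM in control and 5258 and 5224 CPM in KO. Cks1b, a regulator of cyclin-dependent kinases and the most abundant of them, measured 1463 and 2755 CPM in control and 1680.4 and 1911 CPM in KO. Eif2s2, a subunit of the initiation factor that brings in the initiator tRNA, measured 473 and 203 CPM in control and 497 and 759 CPM in KO.

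Maternal oocyte genes were tested for 66 of 78 members, of which 41 were positive and 25 negative with a median of 0.31. Both KO libraries lay above both controls for 17 (25.8%, beside 16%) and below both for 6 (9.09%, beside 17.3%). Among all tested genes at 1000 CPM or more these shares were 31.1% and 14.8%, and at 100 to 1000 CPM 20.5% and 14.9%. The summed level of the maternal list was 72230.0 and 91862 CPM in control and 107908 and 89543 CPM in KO. Control library 1 was the lowest of the 4, control library 2 lay above KO library 2, and the median of the list was 0.01 when no TMM factors were used. Earlier libraries did not share the higher side: 29 of 73 tested members were positive at 18h, 33 of 74 at 20h and 31 of 74 at 22h.

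Nlrp9c, an oocyte member of the NLR family, measured 3548 and 5519 CPM in control and 6407 and 7812 CPM in KO. Dppa3 measured 10096 and 29080.4 CPM in control and 28436 and 21873 CPM in KO, so control library 1 alone was low. The log2 change of Dppa3 was 0.36 (adjusted p of 0.9999 by edgeR), -0.19 without control library 1, and 1.23 without control library 2. Spin1 lay on the other side at 14115 and 11435 CPM in control and 10334 and 9097 CPM in KO. Gdf9, a growth factor of the oocyte, measured 4.46 and 9.36 CPM in control and 162 and 23.9 CPM in KO, a log2 change of 3.75 with a standard error of 2.00, and of 1.77 without KO library 1. Zp3, which encodes a protein of the egg coat, was at 10.53 CPM or less in all 4 libraries.

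The Obox genes, a homeobox family expressed in oocytes and early embryos whose members can share reads, were tested for 7 of 9 members. Their summed level was 9523 and 11892 CPM in control and 18218 and 15063 CPM in KO, so both KO libraries were the higher ones. Obox2 measured 1427 and 1326 CPM in control and 3427 and 2513 CPM in KO, a log2 change of 1.11 with a standard error of 0.46. Obox1 measured 3605 and 4457 CPM in control and 6906 and 5465 CPM in KO, and Obox5 3426 and 5662 CPM in control and 6389.7 and 6506 CPM in KO. Obox7 overlapped, at 918 and 274 CPM in control and 1495 and 510.4 CPM in KO. Of the 7, Obox1, Obox2 and Obox5 were apart and higher (42.9%, beside 16% of all genes). Among all tested genes at 1000 CPM or more, the level of these 3, that share was 31.1%. Obox3 and Obox8, named after their values were seen, were apart and lower (28.6%, beside 17.3%). The lowest adjusted p of those named was 0.826 by edgeR. At the earlier times, in other libraries, 5 of 8, 3 of 8 and 2 of 7 tested Obox genes were positive at 18h, 20h and 22h.

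Nucleolar and ribosome biogenesis genes were tested for 53 of 120 listed, and 41 were too low to test. They were even in direction, with 26 positive and 27 negative and a median of -0.09, and 7 were apart and higher (13.2%) and 11 apart and lower (20.8%). Npm1 measured 1090.4 and 777 CPM in control and 861 and 1369 CPM in KO, with fully overlapping groups. Npm2, the oocyte nucleoplasmin that remodels sperm chromatin, measured 598 and 573 CPM in control and 737 and 364 CPM in KO. Taf1d, a subunit of the selectivity factor of RNA polymerase I, measured 192 and 163 CPM in control and 273 and 280.0 CPM in KO. Ncl was at 17.4 CPM or less in all 4 libraries, and Fbl, the methyltransferase fibrillarin, was too low to test. Mybbp1a, named after its value was seen, is 1 of 4 genes whose counts did not match the authors' mean: its mean was 77.7 from the counts but 0.130 in the authors' deposited table, so its KO levels of 18.0 and 28.1 CPM are not relied on. Without control library 1 the median of this list was 0.85, equal at this rounding to that over all tested genes.

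PRC2 subunits were tested for 11 of 15 members, with 8 positive and 3 negative and a median of 0.28, and 5 were apart and higher (45.5%, beside 16%) and 0 apart and lower. The 5 were Suz12 and Rbbp7 and, named after their values were seen, Jarid2, Lcor and Phf1. Suz12, the subunit that holds the complex together, measured 283 and 787 CPM in control and 954 and 972 CPM in KO, a log2 change of 0.85 with a standard error of 0.67. The log2 change of Suz12 was 0.30 without control library 1 and 1.68 without control library 2. Rbbp7, a histone chaperone shared with other complexes, measured 424 and 409 CPM in control and 558 and 452 CPM in KO. Ezh2, the methyltransferase itself, overlapped at 39.4 and 128 CPM in control and 88.5 and 113 CPM in KO.

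Eed, which reads H3K27me3, overlapped at 304 and 299.6 CPM in control and 427 and 225 CPM in KO. The summed level of the PRC2 list was 1464 and 2129 CPM in control and 2572 and 2127 CPM in KO, so the second libraries of both genotypes were level. The median was 0.01 without TMM factors, 0.49 without control library 1 and -0.19 without KO library 1, where it was -0.73 over all tested genes. Suz12 lay between 110.2 and 683.6 CPM over the 18 earlier libraries, with a median of 264.8.

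Histone acetylation enzymes, tested for 14 of 31, had 4 members apart in each direction (28.6% each). Crebbp, the paralogue of p300, measured 60.9 and 98.6 CPM in control and 151 and 139 CPM in KO. Ep300, the acetyltransferase that the series inhibits in its chromatin work, measured 11.6 and 19.8 CPM in control and 0 and 9.61 CPM in KO. Hdac2, a histone deacetylase, measured 50.5 and 20.4 CPM in control and 75.6 and 263 CPM in KO, and Sirt1, another deacetylase, measured 11.1 and 1.38 CPM in control and 98.7 and 54.3 CPM in KO. The groups were apart for Crebbp, Ep300, Hdac2 and Sirt1, and the lowest adjusted p of these 4 by edgeR was 0.783 over all settings that were run.

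Developmental regulators, a list of genes that PRC2 marks in embryonic cells, were mostly too low: 9 of 56 were tested, 15 were too low and 32 had no row. Both KO libraries lay below both controls for 5 of the 9 (55.6%, beside 17.3%) and above for 0. The 5 were Gata3, Neurog2, Pax6 and, named after their values were seen, Eomes and Hoxc10. Gata3, a transcription factor of trophectoderm, measured 81.5 and 76.9 CPM in control and 0.0707 and 0 CPM in KO. Neurog2, a factor of neuronal precursors, measured 1.42 and 38.5 CPM in control and had no count in KO, and Pax6, a factor of eye and brain, measured 2.41 and 24.6 CPM in control and had none in KO. For Neurog2 and Pax6 the level rested on control library 2. Gata3, Neurog2 and Pax6 passed the filter on low counts through the control libraries alone. Their being apart and lower follows from that filter, so the share of this list is a description only.

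The median over the 9 was -8.16, or -4.51 with genes at 0 in KO set to the bound given by 3 counts, and it was 1.29 without control library 2, beside 0.21 over all tested genes. Gata3 was the member whose controls were alike, and in the earlier libraries it was at 33.8 to 123.2 CPM in both genotypes, with a median of 65.3. The AcNPM1 peak nearest the start of Gata3, 378 bases away, had 7.76 RPM in control and 10.4 in KO, a log2 ratio of 0.43. The nearest H3K27me3 peak, 344 bases away, had a ratio of 0.39, and the nearest H3K4me3 peak one of -0.17. At Neurog2 the AcNPM1 signal was 12.9 and 19.5 RPM, a log2 ratio of 0.60, beside an H3K27me3 ratio of 0.00056. At Pax6 the AcNPM1 ratio was 0.62 and the H3K27me3 ratio -0.14, in peaks 1915 and 1830 bases from the start. The AcNPM1 ratio was thus positive at Gata3, Neurog2 and Pax6, as at 78.8% of tested coding genes with such a peak.

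Trophectoderm and epithelial genes, which share Gata3 and Eomes with the list above, were apart and lower for 5 of 11 tested (45.5%) and apart and higher for 1. Krt18, a keratin of simple epithelia, measured 21.5 and 26.2 CPM in control and had no count in KO, at least 241-fold lower. Tspan8, a tetraspanin, measured 39.6 and 95.3 CPM in control and 0.0707 and 0 CPM in KO. Krt18 and Tspan8 passed the filter on low counts through the control libraries alone, so their being apart follows from that filter. Id2, an inhibitor of basic helix-loop-helix factors, measured 99.1 and 125 CPM in control and 83.6 and 41.9 CPM in KO. Their median log2 change was 0.21, opposite in sign to that count, and was negative with any 1 of the 4 libraries left out, at -0.87 without control library 1 and -0.47 without control library 2.

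Pluripotency genes were tested for 11 of 25, with 5 positive and 6 negative and a median of -0.19, and 3 were apart and lower (27.3%) and 1 apart and higher. Beside Sall4 these were Zfp281 and, named after their values were seen, Nr5a2 on the lower and Lin28a on the higher side. Zfp281, a zinc finger partner of the pluripotency network, measured 119 and 108 CPM in control and 1.27 and 86.9 CPM in KO. Sall4, a factor needed for the inner cell mass, measured 73.6 and 98.4 CPM in control and 6.86 and 38.7 CPM in KO. Dppa2, an activator of early embryonic genes, was at 144 and 199.96 CPM in control, and at 302.1 CPM in KO library 1 against 0.308 CPM in KO library 2.

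Genes of the p53 and stress response were apart and higher for 4 of 12 tested (33.3%, beside 16%), with 8 positive and a median of 0.86, and the median was -1.71 without KO library 2, beside -1.91 over all tested genes. Trp53inp1, a p53 target that promotes cell death and autophagy, measured 117 and 59.1 CPM in control and 289 and 342 CPM in KO, a log2 change of 1.84 with a standard error of 0.90. Gadd45a, a growth arrest gene, measured 24.9 and 56.9 CPM in control and 70.4 and 88.8 CPM in KO. The other 2 apart and higher were Cdkn1a and Nupr1, named after their values were seen, whose counts did not match the authors' deposited table (means of 114 and 128 for Cdkn1a). The share of 33.3% therefore rests in part on counts that are not relied on. At 18h, 20h and 22h, 13 of 26, 10 of 24 and 15 of 25 tested genes of this list were positive.

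Cell cycle genes were apart and higher for 9 of 39 tested (23.1%) and apart and lower for 3 (7.69%), with a median of 0.46. The median was 0.24 without TMM factors, 0.0542 without KO library 1 and -0.0332 without KO library 2. Pttg1, the securin that holds back chromosome separation, measured 5348 and 5219 CPM in control and 9787 and 6058 CPM in KO. Mad2l1, of the spindle checkpoint, measured 2287 and 2978 CPM in control and 5519 and 4437 CPM in KO, a log2 change of 0.92 with a standard error of 0.41. Birc5, which encodes survivin, measured 883 and 941 CPM in control and 1713 and 1083 CPM in KO. The 3 were higher in both KO libraries, and KO library 1 held the highest level of each.

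**Figure D5:**
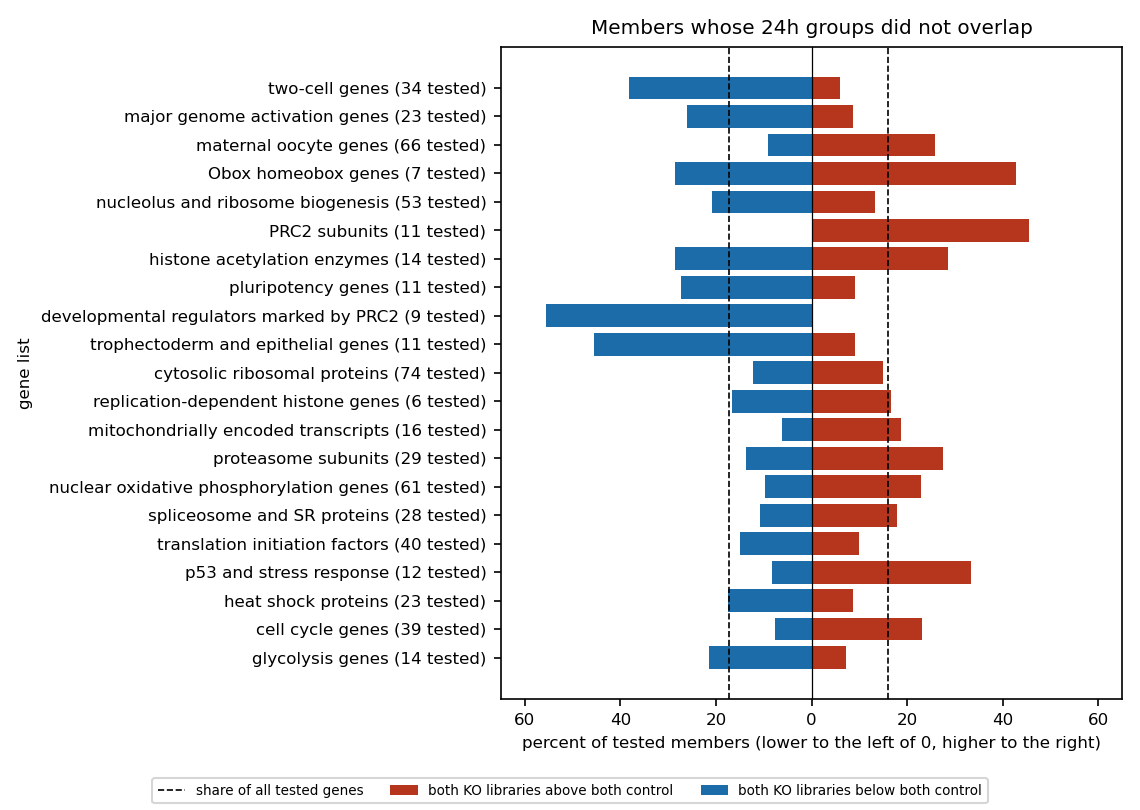
Percent of tested members of each list whose 2 KO libraries both lay above (right) or both below (left) the 2 control libraries, with dashed lines at 16% and 17.3%, the shares over all tested genes. The developmental, trophectoderm and 2-cell lists reach farthest on the left, at 55.6%, 45.5% and 38.2%, and the PRC2, Obox and p53 lists farthest on the right, at 45.5%, 42.9% and 33.3%. Gata3, Neurog2, Pax6, Krt18 and Tspan8 passed the filter on low counts through the control libraries alone. The developmental and trophectoderm shares, which overlap in Gata3 and Eomes, are thus a description only. The p53 share includes Cdkn1a and Nupr1, whose counts did not match the authors' deposited table. The Obox and histone acetylation lists pass both lines, at 28.6% on the left.

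Of 16 mitochondrially encoded transcripts 15 had a positive log2 change with a median of 0.44. Mt-Cytb, a subunit of complex III and the most abundant gene of all, measured 42806 and 94089.6 CPM in control and 101109 and 71966 CPM in KO. Its log2 change was 0.34, and -0.10 without control library 1. The transcripts were therefore low in control library 1, and 3 of the 16 were apart and higher, near the background share. In other libraries 15 of 16 were positive at 18h, 13 of 16 at 20h and 7 of 16 at 22h.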

How the data were processed

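RNA of 24h control and LoNA KO embryos was counted per gene by the authors, and the deposited counts are raw. For the RNA samples, HISAT2 2.1.0, Bowtie2 2.2.3, HTSeq 0.6.0 and build mm10 are listed, without roles, in the submitters' processing notes, which also list bcl2fastq 2.2, Bowtie2 2.1.0 and MACS2 2.1.1, tools of the chromatin data. The normalised mean signal and the log2 fold changes in the authors' deposited tables were used as a check and, for the chromatin peaks, as values. The AcNPM1 values deposited by the authors are RPM, reads scaled to the library total. The histone mark columns carry initials, so their direction was read from the table's name.

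Columns of one group whose log2(CPM + 1) correlated above 0.99 were summed, which left 2 libraries a group. Counts were filtered with filterByExpr, scaled by TMM and tested with edgeR 4.0.16 (quasi-likelihood, Benjamini-Hochberg adjustment, threshold 0.05) in R 4.3.3. DESeq2 1.42.0 and limma 3.58.1 served for alternatives and for the comparison across times. The procedure was tested on simulated data with a much smaller spread between libraries than the 158% found here. That test therefore does not show which changes could be detected in these libraries. The 16 per-sample columns that match no labelled sample were not used. Total counts per library were 13066794 to 16922914, and the number of libraries limits the precision. A fold against a group at 0 uses a floor of 3 counts over the group.

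The members and gene lists were chosen with earlier results of these data known. Genes are named by rule: the 12 protein-coding genes a direction with the lowest p among those with groups apart and at least 20 CPM in the lower library of the higher group, a fixed set of genes of the study's subject, up to 4 most abundant members of each list, and the 5 most abundant genes. Alternatives changed the scaling, the filter, the mitochondrial transcripts, the summing of columns, the tool and the libraries left in. Promoter windows come from RefSeq on GRCm38.p6. The values of 1 gene that the rule names are not reported here.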

Additional observations from a re-analysis of the deposited data

How the results depend on the processing

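No paired analysis was possible because the 24h columns carry the numbers 1, 2, 3 and 5 for KO and 1, 2, 5 and 6 for control, which are not the replicate numbers of the labels and cannot be tied to them. The count of genes called by edgeR, 0 in each direction, was 0 higher and 3 lower with no filter on low counts, and 0 to 23 higher and 0 to 16 lower with 1 library left out. DESeq2 called 554 higher and 851 lower, and edgeR on the 8 columns taken as separate libraries called 346 and 477. The genes with groups apart and lower numbered 1981 with no filter and 838 with at least 10 CPM required in 2 libraries. With 1 library left out they numbered 2468 to 3551 higher and 2902 to 4271 lower, where an arm of 1 library overlaps less often by construction. The difference of the 24h effect from earlier times was past the threshold for 1450 genes in voom with no sample weights and for 4035 in edgeR, and for 0 with any 1 of the 24h libraries left out. Of 475 values of the genes named, 469 kept their direction and side of the threshold under the other settings, and of 324 with 1 library left out 287 did, 25 changed sign and 12 passed the threshold. The log2 change without TMM factors was -0.00344 for Npm1, -0.18 for Eed, -0.00891 for Btg4 and -0.0133 for Fn1. With the deeper column of each pair it was -0.26 for Hbb-bs. With 1 library left out it was -0.0529 to 0.53 for Npm1, -7.35 to 0.78 for Ncl, -0.33 to 1.27 for Ezh2, -0.46 to 0.57 for Eed, -3.38 to 0.74 for Zscan4d, -7.69 to 7.26 for Zfp352, -0.19 to 1.23 for Dppa3, -0.94 to 0.29 for AA792892, -0.60 to 0.21 for Cks1b, -0.11 to 0.65 for Btg4, -0.29 to 1.89 for Obox7, -0.73 to 0.40 for Npm2, -9.12 to 0.87 for Dppa2, -0.10 to 0.93 for mt-Cytb, -11.60 to 2.02 for Pgk2, -9.46 to 0.32 for Prm2, -6.59 to 2.61 for Hba-a1, -10.95 to 1.96 for Hbb-bs and -10.69 to 5.68 for Fn1. Without TMM factors, the median log2 change was -0.44 for the major genome activation list, 0.00948 for the maternal oocyte list, 0.32 for the Obox list, 0.0127 for the PRC2 list, -0.54 for the histone acetylation list, 0.16 for the nuclear oxidative phosphorylation list, -0.27 for the translation initiation list, 0.39 for the p53 list and 0.24 for the cell cycle list. With no filter on low counts, the median log2 change was -1.19 for the major genome activation list, -1.99 for the nucleolar list, -5.52 for the developmental regulator list, -0.88 for the trophectoderm list, 0.12 for the nuclear oxidative phosphorylation list, -0.33 for the translation initiation list and 0.11 for the cell cycle list. With at least 10 CPM required in 2 libraries, the median log2 change was 0.17 for the nucleolar list, 0.30 for the PRC2 list, -0.64 for the histone acetylation list, -1.40 for the pluripotency list, -6.15 for the developmental regulator list, -0.87 for the trophectoderm list, 0.0853 for the nuclear oxidative phosphorylation list, -0.30 for the translation initiation list and 0.0995 for the glycolysis list. With the deeper column of each pair in place of the sum, the median log2 change was -0.44 for the major genome activation list, 0.24 for the PRC2 list, -3.14 for the developmental regulator list, 0.57 for the trophectoderm list, -0.22 for the translation initiation list and -0.26 for the blood list. With DESeq2 size factors in edgeR, the median log2 change was 0.23 for the PRC2 list. Leaving out 1 library at a time, the range of the median was -4.67 to 0.29 for the 2-cell list, -4.14 to -0.56 for the major genome activation list, 0.12 to 0.62 for the maternal oocyte list, 0.041 to 0.83 for the Obox list, -6.57 to 0.85 for the nucleolar list, -0.19 to 0.49 for the PRC2 list, -1.78 to -0.23 for the histone acetylation list and -3.73 to -0.33 for the pluripotency list. The same range was -8.65 to 1.29 for the developmental regulator list, -7.83 to -0.47 for the trophectoderm list, -0.55 to 0.40 for the ribosomal protein list, -1.01 to 8.26 for the replication-dependent histone list, 0.0861 to 0.82 for the mitochondrial transcript list, -0.59 to 2.78 for the proteasome list, -0.0858 to 0.58 for the nuclear oxidative phosphorylation list and -0.89 to 0.87 for the splicing list. In the remaining lists it was -0.69 to 0.30 for the translation initiation list, -1.71 to 2.80 for the p53 list, -0.63 to 1.89 for the heat shock list, -0.0332 to 0.90 for the cell cycle list, -3.41 to -0.26 for the glycolysis list, -10.43 to -0.78 for the sperm list and -6.59 to 3.23 for the blood list. Over all tested genes the median was -1.91 to 0.85 with 1 library left out. The cause of these shifts was not tested. With 2 libraries a group and a spread of 158%, the number of libraries limits the precision, and the 6293 genes too low in counts were not tested.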

Other observations

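Among lists of housekeeping function, nuclear genes of oxidative phosphorylation were apart and higher for 14 of 61 tested (23.0%, beside 16%) and apart and lower for 6 (9.84%, beside 17.3%). Cox8a, a subunit of cytochrome c oxidase, measured 286 and 779 CPM in control and 1214 and 814 CPM in KO, with a log2 change of 0.93, and of 0.40 without control library 1. The summed level of the list was 2763 CPM in control library 1 against 5293 to 5346 CPM in the other 3. Its median log2 change was 0.43, beside 0.02 over all tested genes. Without control library 1 it was 0.58, below the 0.85 over all tested genes. Ribosomal protein genes showed the same low library, at 4178 CPM in control library 1 against 7752 to 9132 CPM. Of 74 tested, 11 were apart and higher (14.9%) and 9 apart and lower (12.2%). Their median was 0.26, and 0.40 without control library 1, again below the 0.85 over all tested genes. Proteasome subunits were apart and higher for 8 of 29 (27.6%) and apart and lower for 4 (13.8%), at 1559 and 1205 CPM in control and 1751 and 2245 CPM in KO in sum, with a median of -0.35, and of 2.78 without control library 1, where the median over all tested genes was 0.85. Splicing factors (5 higher and 3 lower of 28), translation initiation factors (4 and 6 of 40), heat shock proteins (2 and 4 of 23), glycolysis genes (1 and 3 of 14) and replication-dependent histones (1 and 1 of 6) completed the lists. No gene of these lists passed the edgeR threshold.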
